A study of Mus musculus with 8 samples.

Results

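The mitochondrial carrier family was read in the ileum of mice with and without Slc51a, as every tested gene whose symbol is Slc25a followed by a number, together with the uncoupling protein genes Ucp1, Ucp2 and Ucp3. By this rule 42 of the 17097 genes tested were members, out of 50 protein-coding mouse genes that carry such a symbol in RefSeq. The other 8, Ucp2 among them, were not analysed here. Adult males on a C57BL/6 background, about 2 months old, were compared as 4 wild type and 4 Slc51a knockout samples of ileal tissue. All had been fasted for 4 h and anaesthetised with ketamine and xylazine. How Slc51a was inactivated, and whether in all tissues, was not given in the sources read. The samples are numbered as biological replicates, and RNA of each was hybridised to 1 Affymetrix expression array.

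Carriers of this family are nuclear-encoded membrane proteins, most of which sit in the inner mitochondrial membrane and exchange a metabolite of the matrix for one of the cytosol. They are made in the cytosol, taken through the TOM pore of the outer membrane and inserted into the inner membrane by the TIM22 complex. Enterocytes burn glutamine and fatty acids in their mitochondria and make citrulline there, so the steps that carriers serve include ATP export, the malate-aspartate shuttle, fatty acid entry and the urea cycle intermediates.

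Signals are on the log2 scale, where 1 unit is a doubling. Each difference is the knockout mean minus the wild type mean, with n = 4 per genotype and SE for its standard error. Adjusted p-values are limma's, adjusted by Benjamini-Hochberg over all genes, with a threshold of 0.05. Slc51a itself, which encodes a subunit of the basolateral bile acid transporter, had wild type signals of 11.36, 11.41, 11.29 and 11.37 against knockout signals of 4.67, 4.50, 4.68 and 4.56 (difference -6.75, SE 0.054, adjusted p = 4.86e-14). As a check of the tissue, Fabp6, which binds bile acids inside ileal enterocytes, had means of 13.11 in wild type and 13.18 in knockout samples. Of 6 measured ileal marker genes, Fabp6 among them, 0 were higher and 4 lower in the knockout. The lower ones were Cubn (-1.61), Guca2b (-1.23), Slc10a2 (-0.45) and Slc51b (-0.36). Array medians lay between 4.559 and 4.604, and correlations across probe sets were 0.996 to 0.998 within a genotype and 0.988 to 0.992 between genotypes. In a whole tissue, fewer cells of a type and less RNA per cell cannot be told apart. Several lists of cell markers moved with genotype, while of 4 measured Paneth and 5 adipocyte genes 0 were called. Of 17 measured mature enterocyte genes 15 were lower and 1 higher in the knockout, of 11 smooth muscle genes 11 were lower, of 12 T lymphocyte genes 11 were lower, and of 11 proliferating crypt genes 10 were higher.

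The family moved in both directions. In the knockout 8 members were higher and 5 lower, and 29 did not pass the threshold. These 13 of 42 members are 31.0%, against 30.0% of all genes tested (17.1% higher and 12.9% lower), so the share called in the family was close to that of all genes. The genotypes did not overlap in 12 of 42 members, against 30.7% of all genes. The median difference of the members was 0.04, with a range from -0.67 to 0.47, and that of all genes was 0.01. Their median absolute difference was 0.14 against 0.10 for all genes. Of the 42 members, 36 had a mean at or above the median of all probe sets, 4.58. Such a level does not by itself show detection, as Slc51a read 4.50 to 4.68 in the knockout samples. Among genes at or above that level, 13 of 36 members were called (36.1%), against 43.3% of genes. The split depended on the scaling of the deposited values, with 9 higher and 6 lower after quantile normalization, 9 and 4 after median centring, and 7 and 10 after cyclic loess. Over all genes cyclic loess gave 14.7% higher and 15.4% lower, median centring 19.4% and 11.5%, and quantile normalization 16.6% and 13.5%.

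**Figure D1:**
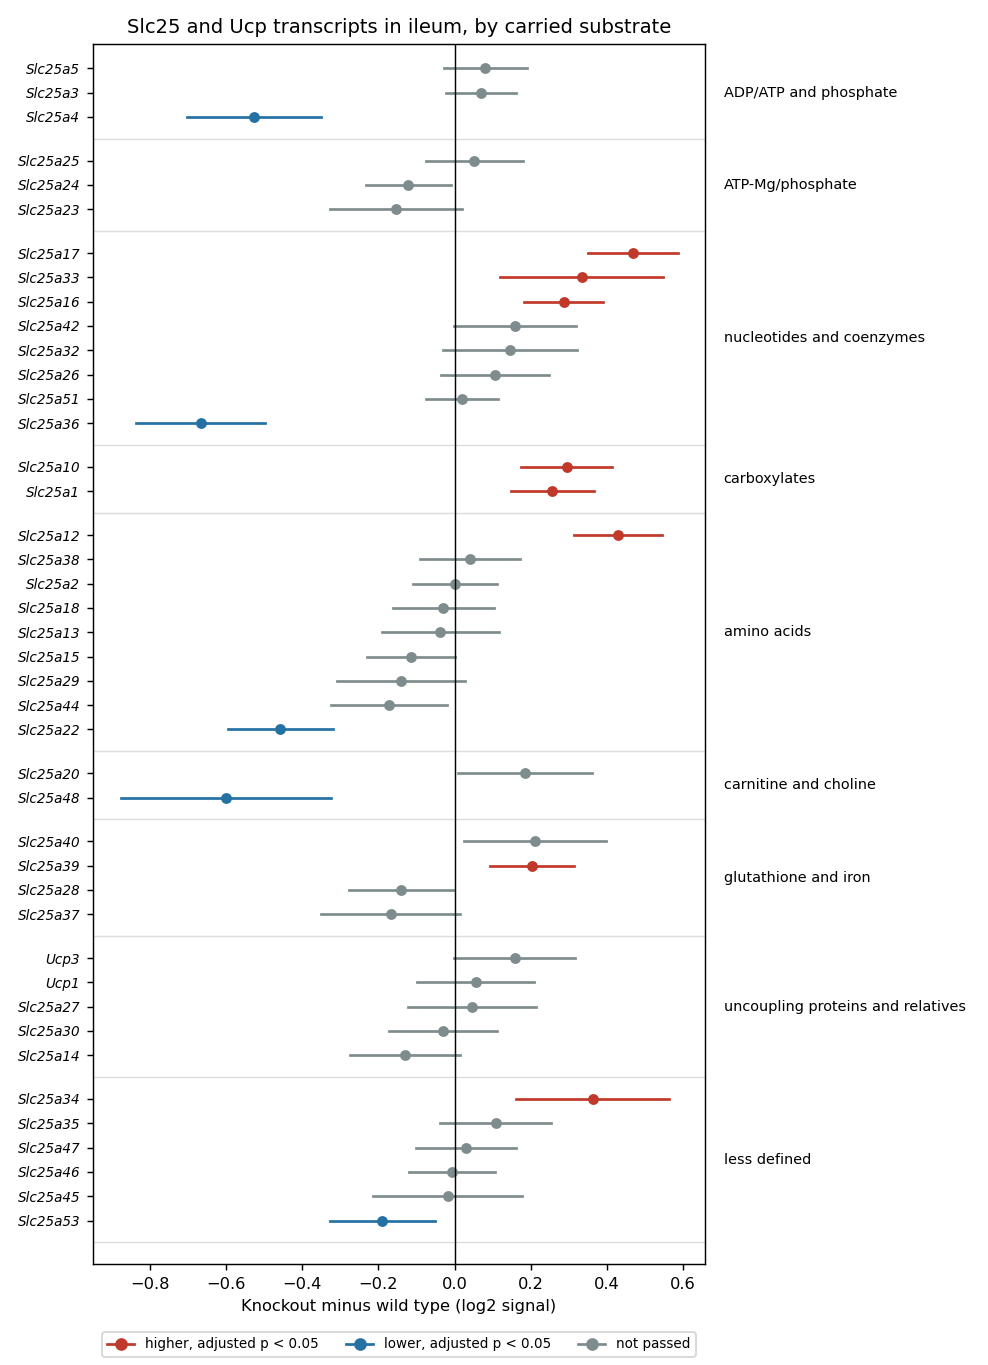
Difference between knockout and wild type for each of the 42 members, in log2 signal, grouped by what the carrier moves; points are differences and bars their 95% confidence intervals from limma (4 arrays per genotype). Red members were higher (8), blue lower (5) and grey did not pass (29); the range runs from -0.67 for Slc25a36 to 0.47 for Slc25a17.

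Among the carriers of ADP, ATP and phosphate, Slc25a4 fell while the other 2 measured members, both brighter, did not pass. Slc25a4 encodes ANT1, the ADP/ATP exchanger that predominates in heart and skeletal muscle. It was at 9.63, 9.63, 9.68 and 9.56 in wild type and at 9.17, 9.28, 9.06 and 8.87 in knockout samples. Every knockout sample lay below every wild type sample, and the difference was -0.53 (SE 0.080, adjusted p = 5.02e-04), 1.44-fold lower. Slc25a5, which encodes ANT2, the form found in most other tissues and in dividing cells, was at 12.38, 12.46, 12.38 and 12.34 in wild type and 12.47, 12.47, 12.54 and 12.39 in knockout samples. Its groups overlapped, and the difference was 0.08 (95% confidence interval -0.03 to 0.19, adjusted p = 0.265). After cyclic loess it was -0.02. Slc25a3, the phosphate carrier, was at 11.80, 11.86, 11.79 and 11.77 in wild type and 11.88, 11.88, 11.87 and 11.87 in knockout samples. Those groups did not overlap, by a narrow margin, and the difference of 0.07 had an adjusted p of 0.259. Smooth muscle markers moved the same way as Slc25a4. All 11 measured were lower in the knockout, none was below the median probe set, and their summed linear signal was 10650 to 13745 in wild type and 6865 to 7903 in knockout samples. Mature enterocyte markers fell too, with a summed signal of 43622 to 48171 in wild type and 30134 to 33636 in knockout samples. Their part in the result was not tested.

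The calcium-regulated ATP-Mg/phosphate carriers, which load adenine nucleotides into the matrix, had 0 of 3 members called. Slc25a24 was among the brightest members, at 11.25, 11.32, 11.15 and 11.30 in wild type and 11.19, 11.12, 11.12 and 11.12 in knockout samples. Its groups overlapped in 1 knockout sample, and the difference was -0.12 (adjusted p = 0.0969). Without wild type replicate 3 it was -0.16 (adjusted p = 0.0429). A second, dimmer probe set of Slc25a24 differed by 0.008 (limma adjusted p = 0.965 over all probe sets). Slc25a25 was at 6.25, 6.40, 6.16 and 6.21 in wild type and 6.27, 6.37, 6.30 and 6.28 in knockout samples, groups that overlapped, and differed by 0.05 (adjusted p = 0.566). Slc25a23, below the median probe set, was at 4.32, 4.37, 4.27 and 4.22 in wild type and 4.11, 4.32, 4.20 and 3.92 in knockout samples. Only knockout replicate 2 lay inside the wild type range, and the difference was -0.15 (adjusted p = 0.175). Without Slc51a knockout replicate 2 Slc25a23 was at -0.22 (adjusted p = 0.0475).

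The 8 carriers of nucleotides and coenzymes held both ends of the family's range, with 3 higher, 1 lower and 4 not passed. Slc25a17, which is placed in the peroxisomal membrane and moves coenzyme A, FAD and NAD, was at 6.66, 6.65, 6.65 and 6.57 in wild type and at 7.14, 7.03, 7.21 and 7.03 in knockout samples. The groups lay far apart relative to their spread, and the rise was 0.47 (SE 0.053, adjusted p = 8.21e-05), 1.38-fold. Slc25a16, linked to coenzyme A in the matrix, was at 7.76, 7.67, 7.75 and 7.73 in wild type and at 7.998, 8.08, 8.02 and 7.94 in knockout samples. It too was higher in every knockout sample than in any wild type sample, by 0.29 (SE 0.047, adjusted p = 8.51e-04). Slc25a42, which brings coenzyme A into the matrix, differed by 0.16 (adjusted p = 0.135). Without wild type replicate 2 it was at 0.22 (adjusted p = 0.0380).

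Slc25a36 and Slc25a33 both encode carriers of pyrimidine nucleotides, which mitochondria need for their own DNA and RNA, and they moved in opposite directions. Slc25a36 was at 9.05, 9.29, 9.35 and 9.07 in wild type and at 8.50, 8.56, 8.42 and 8.61 in knockout samples. The groups did not overlap, and this fall, -0.67 (SE 0.077, adjusted p = 8.53e-05), or 1.59-fold, was the largest of the 42 members. A second, dimmer probe set of Slc25a36 differed by -0.35 (adjusted p = 0.0594 over all probe sets). Slc25a33 was at 5.32, 5.55, 5.31 and 5.51 in wild type and at 5.87, 5.51, 5.96 and 5.68 in knockout samples. Knockout replicate 2 lay within the wild type range, and the rise was 0.33 (SE 0.097, adjusted p = 0.0228). That call was lost when any of 4 arrays was left out. Slc25a33 was then at 0.30 without wild type replicate 1 (adjusted p = 0.0634), 0.30 without wild type replicate 3 (0.0668), 0.29 without Slc51a knockout replicate 1 (0.0636) and 0.27 without Slc51a knockout replicate 3 (0.0641). Slc25a32, a carrier linked to folate and FAD, was below the median probe set and differed by 0.15 (adjusted p = 0.209), and without Slc51a knockout replicate 2 by 0.23 (adjusted p = 0.00863). The last 2 of this group, Slc25a26 for S-adenosylmethionine and Slc25a51 for NAD, differed by 0.11 and 0.02 and did not pass.

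Both measured carriers of carboxylates rose. Slc25a10 exchanges malate and succinate for phosphate, and stood at 8.54, 8.59, 8.43 and 8.56 in wild type and 8.79, 8.82, 8.76 and 8.92 in knockout samples. The difference was 0.29 (SE 0.054, adjusted p = 0.00170), with no overlap. A second, dimmer probe set of Slc25a10 differed by 0.12 and did not pass (limma adjusted p = 0.217 over all probe sets). Slc25a1 exports citrate for cytosolic acetyl-CoA, and stood at 8.40, 8.38, 8.42 and 8.41 in wild type and 8.69, 8.74, 8.66 and 8.55 in knockout samples. Here the wild type samples were nearly alike (SD 0.017) and every knockout sample was higher, by 0.26 on average (SE 0.049, adjusted p = 0.00234), or 1.19-fold. Acly, which splits that citrate in the cytosol, was higher by 0.41 (SE 0.048, adjusted p = 1.01e-04). Acly was chosen for mention after its values were seen.

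Of 9 amino acid carriers 1 rose, 1 fell and 7 did not pass. Slc25a12 and Slc25a13 encode the aspartate/glutamate carriers aralar and citrin, a step of the malate-aspartate shuttle that moves reducing power into mitochondria. Slc25a12 was at 6.62, 6.62, 6.76 and 6.73 in wild type and 7.06, 7.16, 7.16 and 7.06 in knockout samples. It was higher in all 4 knockout samples than in any wild type sample, by 0.43 (SE 0.052, adjusted p = 1.26e-04), or 1.35-fold. Slc25a13 was at 7.45, 7.46, 7.28 and 7.41 in wild type and 7.26, 7.35, 7.55 and 7.29 in knockout samples. Those groups were interleaved, with a difference of -0.04 (95% confidence interval -0.19 to 0.12, adjusted p = 0.752).

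Slc25a22 encodes a carrier that brings glutamate into the matrix with a proton. It was at 8.39, 8.56, 8.45 and 8.47 in wild type and at 8.04, 8.04, 8.11 and 7.85 in knockout samples. All knockout samples were below all wild type samples, and the fall was 0.46 on the log2 scale (SE 0.063, adjusted p = 2.70e-04), or 1.37-fold. Its relative Slc25a18 was below the median probe set, at 4.14, 4.13, 4.37 and 4.22 in wild type and 4.20, 4.10, 4.21 and 4.23 in knockout samples. Those groups overlapped, with a difference of -0.03 (adjusted p = 0.779). Slc25a15, the ornithine carrier of the urea cycle, was at 10.64, 10.69, 10.58 and 10.52 in wild type and 10.48, 10.58, 10.47 and 10.45 in knockout samples, groups that overlapped. Its difference was -0.11 (adjusted p = 0.130), whereas a second, dimmer probe set of Slc25a15 was higher by 0.30 (adjusted p = 0.0121 over all probe sets), so the gene's direction was not settled. Slc25a44, a carrier of branched-chain amino acids, differed by -0.17 (adjusted p = 0.0867). Without Slc51a knockout replicate 4 Slc25a44 was at -0.23 (adjusted p = 0.0188), and its other probe set was lower by 0.38 (adjusted p = 0.00110). Slc25a29, Slc25a38 and Slc25a2, for basic amino acids, glycine and ornithine, differed by -0.14, 0.04 and 0.00 and did not pass, and Slc25a2 was below the median probe set.

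Slc25a48, linked to choline import, fell, and the carnitine carrier Slc25a20 did not pass. Slc25a48 was at 6.998, 7.03, 6.76 and 6.64 in wild type and at 6.57, 6.31, 5.96 and 6.18 in knockout samples. Its samples were widely spread within each genotype but did not overlap, and the difference was -0.60 (SE 0.125, adjusted p = 0.00376), 1.52-fold lower. Without the 3 arrays that had the lowest hybridization controls (wild type replicate 2 and knockout replicates 3 and 4), Slc25a48 was at -0.36 (adjusted p = 0.0785). Slc25a20, which exchanges acylcarnitine for carnitine in fatty acid oxidation, was at 10.12, 10.02, 9.81 and 10.04 in wild type and 10.29, 10.18, 10.01 and 10.25 in knockout samples. The groups overlapped, and the difference of 0.18 missed the threshold (adjusted p = 0.108). It passed without Slc51a knockout replicate 3, at 0.24 (adjusted p = 0.0374), and with the replicate number as a block, at 0.18 (adjusted p = 0.0171). A second probe set of Slc25a20 was higher by 0.35 (adjusted p = 0.0190). The enzymes on either side of it, Cpt1a and Cpt2, were higher by 0.46 and 0.65 (adjusted p = 2.60e-04 and 1.68e-04), and both were chosen for mention after their values were seen.

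In the glutathione and iron group 1 of 4 members rose. Slc25a39, required for glutathione import, was at 10.72, 10.88, 10.78 and 10.83 in wild type and 10.99, 11.05, 10.95 and 11.03 in knockout samples. All knockout samples were higher, by 0.20 on average (SE 0.050, adjusted p = 0.00995), and 2 further probe sets of Slc25a39 rose by 0.36 and 0.53. After cyclic loess the difference was 0.11 (adjusted p = 0.111). Its close relative Slc25a40 was at 5.46, 5.60, 5.45 and 5.52 in wild type and 5.99, 5.68, 5.63 and 5.57 in knockout samples. A single knockout sample overlapped the wild type range, and the difference of 0.21 did not pass (adjusted p = 0.0864). It passed without Slc51a knockout replicate 4, at 0.26 (adjusted p = 0.0428), and without the 3 arrays with low controls, at 0.36 (adjusted p = 0.0313). The mitoferrins, which import iron for heme and iron-sulfur clusters, did not pass. Slc25a37 was at 8.20, 8.51, 8.34 and 8.56 in wild type and 8.10, 8.35, 8.26 and 8.22 in knockout samples, with a difference of -0.17 (adjusted p = 0.162). Slc25a28 was at 7.14, 7.08, 7.04 and 7.28 in wild type and 7.003, 7.09, 6.91 and 6.97 in knockout samples, with a difference of -0.14 (adjusted p = 0.118). The groups overlapped for both. Without wild type replicate 1 Slc25a37 was at -0.24 (adjusted p = 0.0382). Its other probe sets differed by 0.06 and -0.02 (limma adjusted p = 0.560 and 0.883 over all probe sets).

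The uncoupling proteins and their relatives, which in the best known case let protons back across the inner membrane and release heat, had 0 of 5 members called. Ucp1, the brown fat protein, was at 3.98, 3.84, 3.86 and 3.81 in wild type and 3.91, 3.97, 3.75 and 4.07 in knockout samples. These values are all below the median probe set, and the adipocyte markers were likewise not called (0 of 5, 2 of them below the median). Ucp3, known from skeletal muscle, was at 5.08, 5.16, 5.10 and 5.13 in wild type and 5.18, 5.14, 5.49 and 5.28 in knockout samples. The groups overlapped, and the difference was 0.16 (adjusted p = 0.133). Slc25a14 was at 6.62, 6.61, 6.65 and 6.58 in wild type and 6.67, 6.49, 6.42 and 6.36 in knockout samples. Knockout replicate 1 was the highest of the 8 and the other knockout samples the lowest, with a difference of -0.13 (adjusted p = 0.173), or -0.19 without Slc51a knockout replicate 1 (adjusted p = 0.0184). Slc25a30 was at 5.68, 5.65, 5.69 and 5.86 in wild type and 5.72, 5.72, 5.76 and 5.55 in knockout samples, which overlapped, and differed by -0.03 (adjusted p = 0.784). Slc25a27, below the median probe set, differed by 0.05.

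Among 6 members whose substrate is less well defined, 1 rose and 1 fell. Slc25a34 was at 6.79, 6.89, 6.88 and 6.72 in wild type and at 7.35, 6.94, 7.09 and 7.35 in knockout samples. The groups did not overlap but knockout replicate 2 came close to wild type, and the rise was 0.36 (SE 0.091, adjusted p = 0.0108). Without the 3 arrays with low controls Slc25a34 was at 0.35 (adjusted p = 0.0835). Slc25a53 was at 6.31, 6.33, 6.19 and 6.09 in wild type and 6.12, 5.96, 6.01 and 6.07 in knockout samples. These overlapped, and the fall of 0.19 (SE 0.062, adjusted p = 0.0405) had the highest adjusted p of the 13 calls. The call on Slc25a53 was lost without wild type replicates 1, 2 or 3 (-0.17, -0.16 and -0.20, adjusted p = 0.106, 0.110 and 0.0619). It was also lost without Slc51a knockout replicates 2, 3 or 4 (-0.16, -0.18 and -0.20, adjusted p = 0.1004, 0.0911 and 0.0574), and with the replicate number as a block (adjusted p = 0.0525). In all, 12 of 18 refits lost the call on Slc25a53. They include quantile normalization (limma adjusted p = 0.0936), median centring (0.0611) and the mean of probe sets (-0.07, 0.308). Slc25a35, Slc25a45, Slc25a46 and Slc25a47 lay between -0.02 and 0.11 and did not pass. Slc25a46 is a protein of the outer membrane that takes part in mitochondrial shape rather than transport.

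**Figure D2:**
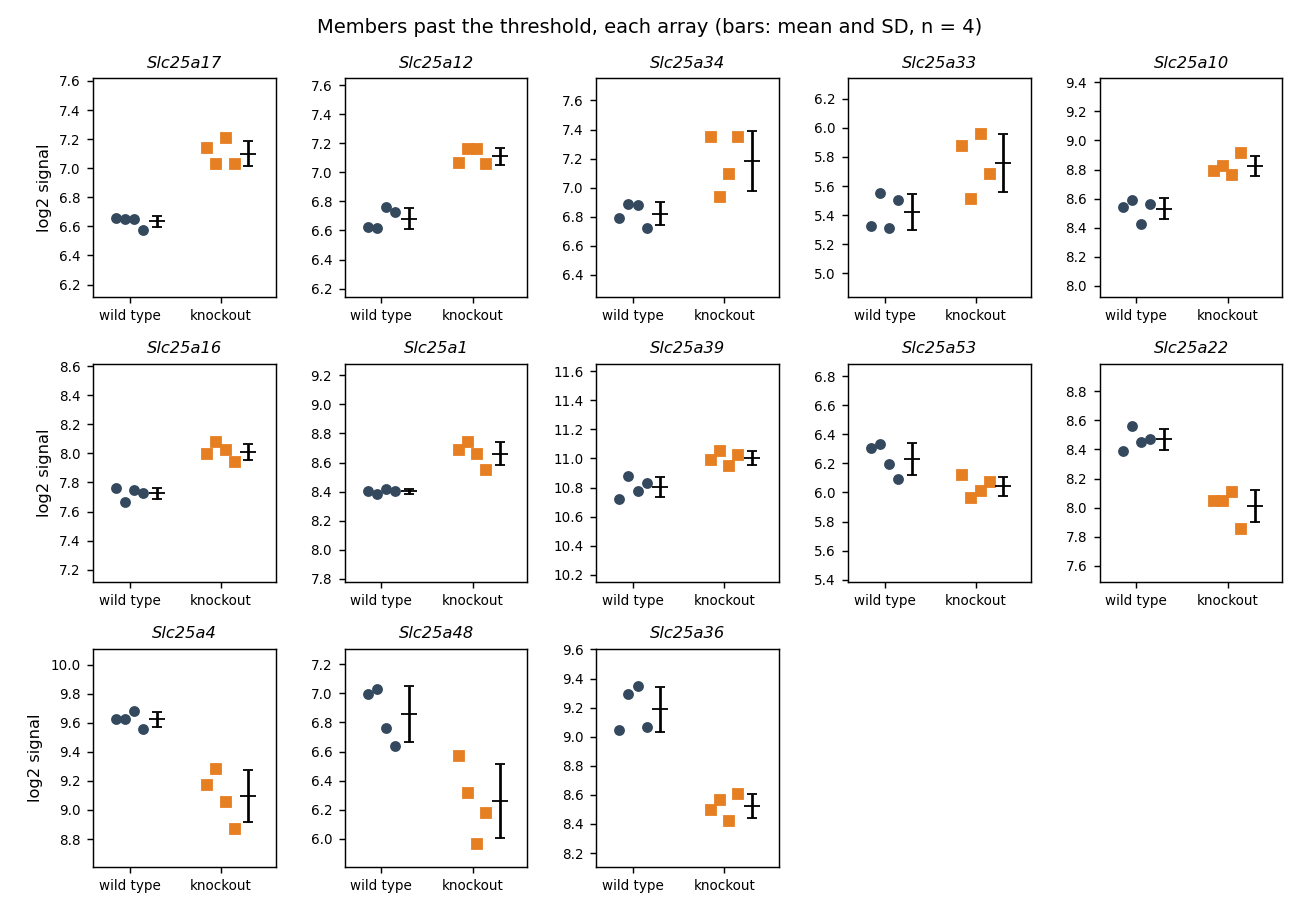
Log2 signal of the 13 called members in each of the 4 wild type (circles) and 4 knockout arrays (squares), with the mean and SD of each group; every panel spans the same height in log2 units. The genotypes did not overlap in 11 of the panels and overlapped for Slc25a33 and Slc25a53.

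Related carriers of the same substrate were then compared on the same array, so that a shift common to both cancels. The difference between 2 probe sets on an array also holds their own binding strengths and is no ratio of amounts, so only its change between genotypes was read. Of 12 pairs listed, 10 had both members measured. Slc25a5 minus Slc25a4 was 2.75, 2.83, 2.70 and 2.78 in wild type and 3.30, 3.19, 3.49 and 3.53 in knockout samples. The balance shifted toward Slc25a5 by 0.61 (SE 0.085, 2-sided exact permutation test p = 0.0286, adjusted over the 10 pairs 0.0476). Slc25a36 minus Slc25a33 was 3.72, 3.74, 4.04 and 3.56 in wild type and 2.62, 3.05, 2.46 and 2.92 in knockout samples. This was the largest shift among the pairs, -0.9997 (SE 0.169, exact permutation p = 0.0286, adjusted 0.0476), with no overlap.

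Slc25a13 minus Slc25a12 was 0.83, 0.84, 0.53 and 0.69 in wild type and 0.20, 0.19, 0.39 and 0.23 in knockout samples, a shift of -0.47 (SE 0.087) toward aralar. The shift of Slc25a22 against Slc25a18 was -0.43 (SE 0.0998), of Slc25a24 against Slc25a25 -0.17 (SE 0.049), and of Slc25a23 against Slc25a25 -0.21 (SE 0.075). Each of these 4 had the same exact permutation p of 0.0286 (adjusted 0.0476), with groups that did not overlap. With 4 arrays against 4 there are 70 arrangements, and 0.0286 is the smallest 2-sided p they can give. The adjusted p passed because 6 of the 10 pairs reached that p together. With any of the 8 arrays left out, or with probe sets of a gene averaged, 0 pairs passed. The pairs share members, since Slc25a24, Slc25a25 and Slc25a23 form 3 of them, and Slc25a18 and Slc25a23 were below the median probe set. The pairs read the same values as the calls above, with earlier results known, and are no separate support for those calls. In Slc25a22 against Slc25a18, Slc25a5 against Slc25a4 and Slc25a13 against Slc25a12, only Slc25a22, Slc25a4 and Slc25a12 had been called themselves. Slc25a37 against Slc25a28, Slc25a39 against Slc25a40, Slc25a24 against Slc25a23, and Slc25a14 against Slc25a30 shifted by -0.03, -0.01, 0.03 and -0.10 (exact permutation p = 0.771, 0.943, 0.800 and 0.314). In 14 alternatives the shift of Slc25a5 against Slc25a4 ranged from 0.29 to 0.67 and that of Slc25a36 against Slc25a33 from -1.10 to -0.84, each with an unadjusted exact permutation p of 0.0286. The low value for the adenine nucleotide carriers, 0.29, came with the mean of probe sets, where a second Slc25a4 probe set with means of 3.46 and 3.54, below the median probe set, entered.

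**Figure D3:**
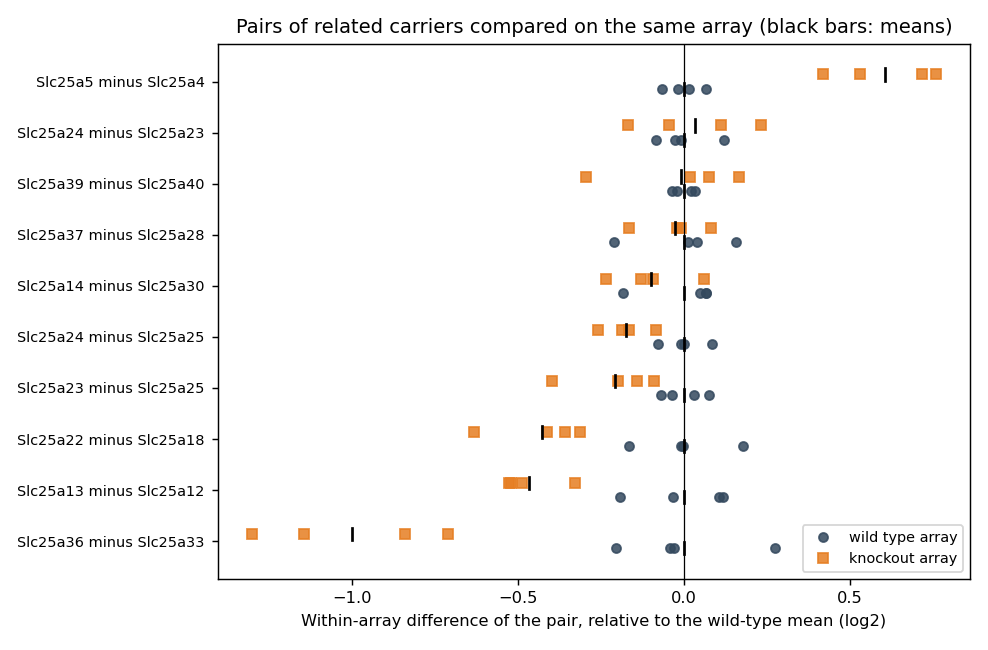
Within-array difference of log2 signal for each of 10 pairs of related carriers, set relative to the wild type mean of the pair; circles are wild type arrays, squares knockout arrays and black bars group means. Knockout arrays are separate from wild type arrays in 6 pairs, from -0.9997 for Slc25a36 minus Slc25a33 to 0.61 for Slc25a5 minus Slc25a4.

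The start regions of these pairs of genes are shown because their members moved apart. Each is the 250 bases before the annotated start, from RefSeq of mouse assembly GRCm38.p6, 5′ to 3′ on the gene's strand. Capitals mark matches on either strand to CCAAT (the CCAAT box), to CACGTG (the E-box) or to TGACNNNGC (the core of the antioxidant response element).
Slc25a36 chr9:97111042-97111291 (- strand): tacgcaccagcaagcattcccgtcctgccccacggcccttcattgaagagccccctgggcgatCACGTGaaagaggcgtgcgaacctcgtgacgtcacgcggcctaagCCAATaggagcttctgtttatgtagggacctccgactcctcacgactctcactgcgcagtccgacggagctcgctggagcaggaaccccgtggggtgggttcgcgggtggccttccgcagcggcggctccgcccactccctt
Slc25a33 chr4:149774268-149774517 (- strand): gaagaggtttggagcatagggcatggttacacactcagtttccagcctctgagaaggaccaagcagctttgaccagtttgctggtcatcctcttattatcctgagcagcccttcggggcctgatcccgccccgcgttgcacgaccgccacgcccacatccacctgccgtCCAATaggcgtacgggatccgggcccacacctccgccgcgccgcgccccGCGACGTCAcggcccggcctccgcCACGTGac
Slc25a4 chr8:46211063-46211312 (- strand): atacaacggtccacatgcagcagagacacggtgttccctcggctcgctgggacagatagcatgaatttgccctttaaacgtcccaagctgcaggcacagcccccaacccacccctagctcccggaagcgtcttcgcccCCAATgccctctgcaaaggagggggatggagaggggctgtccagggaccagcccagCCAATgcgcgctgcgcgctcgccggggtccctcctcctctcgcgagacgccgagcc
Slc25a5 chrX:36795347-36795596 (+ strand): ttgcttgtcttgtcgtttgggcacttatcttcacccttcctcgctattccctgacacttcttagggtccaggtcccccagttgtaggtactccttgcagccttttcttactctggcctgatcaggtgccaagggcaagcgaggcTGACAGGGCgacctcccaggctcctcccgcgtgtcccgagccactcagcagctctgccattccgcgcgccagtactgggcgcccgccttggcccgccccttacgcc
The pyrimidine nucleotide carriers Slc25a36 and Slc25a33, whose transcripts moved in opposite directions, each held 1 CCAAT and 1 CACGTG. Slc25a4 held 2 CCAAT matches and Slc25a5 none. TGACNNNGC was matched 1 time each in Slc25a33 and Slc25a5, and not in Slc25a36 or Slc25a4. A match is a description of the letters and was not tied to binding of a factor.

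Over the family, 33 of 42 members had such windows, 42 in all because 6 members have several starts. CCAAT was in 19 of 42 member windows (16 of 33 members) and in 33.85% of the 32851 windows of all genes in that table. CACGTG was in 7 of 42 member windows, against 6.02% of all windows. TGACNNNGC was in 9 of 42, against 10.16%, and GGGCGG (GC box) in 30 of 42, against 32.74%. TCAAGGTCA, an estrogen-related receptor half-site, was in 0 member windows and in 0.39% of all. The member windows were richer in G and C, with a median of 57.8% against 52.4%. By direction, CCAAT was in 4 of 8 members that were higher, 4 of 5 that were lower and 8 of 20 that did not pass. CACGTG was in 2, 1 and 3 of them and TGACNNNGC in 1, 0 and 6.

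Genes that work beside the carriers were read from lists chosen by function. In all, 42 of 68 measured were higher and 0 lower (61.8%, against 30.0% of all genes), with a median difference of 0.22, against the members' 0.04. These are mostly bright genes, 65 of 68 at or above the median probe set, where 43.3% of genes were called. After cyclic loess 31 were higher and 4 lower. The machinery that imports and inserts carriers had 11 of 14 measured genes higher and 0 lower, with a median of 0.47. Timm22, the channel that inserts carriers into the inner membrane, was at 7.80, 7.79, 7.69 and 7.82 in wild type and at 8.51, 8.43, 8.44 and 8.70 in knockout samples. It rose by 0.74 (SE 0.065, adjusted p = 1.69e-05), where the highest difference of a carrier was 0.47. Timm8b and the TOM subunits Tomm6 and Tomm22 rose by 0.66, 0.51 and 0.41.

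Partner enzymes of the carriers had 21 of 31 genes higher and 0 lower, with a median of 0.23. Me1, the cytosolic malic enzyme that makes NADPH from malate, was at 6.92, 6.93, 6.88 and 7.22 in wild type and 8.59, 8.56, 8.34 and 8.10 in knockout samples, a rise of 1.41 (SE 0.110, adjusted p = 8.85e-06), or 2.66-fold. Got2, the mitochondrial transaminase of the malate-aspartate shuttle, rose by 0.42, beside its carrier Slc25a12. Alas1, which begins heme synthesis, rose by 0.70 and Gpd1, of the glycerol phosphate shuttle, by 0.64. Gpd2, of the same shuttle as Gpd1, differed by -0.16 (limma adjusted p = 0.0521) and did not pass. Nor did Mdh1, of the malate-aspartate shuttle, at -0.10 (limma adjusted p = 0.174). Gpd2 and Mdh1 were chosen for mention after their values were seen. Outer membrane channels and distant homologs had 5 of 6 higher and 0 lower (median 0.24), among them Tspo (0.64), Mtch2 (0.41), Vdac1 (0.30) and Vdac2 (0.18). The list for other inner membrane transport had 5 of 17 higher and 0 lower (29.4%, median 0.10). Its genes are not all transporters or inner membrane proteins. The higher ones included Oxa1l (0.42), Chchd4 (0.29), Abcb6 (0.29) and the pyruvate carrier subunit Mpc1 (0.16). Proliferating crypt genes moved with these lists. Their summed linear signal was 4345 to 4690 in wild type and 5666 to 6437 in knockout samples, with none below the median probe set. Their part in the result was not tested.

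**Figure D4:**
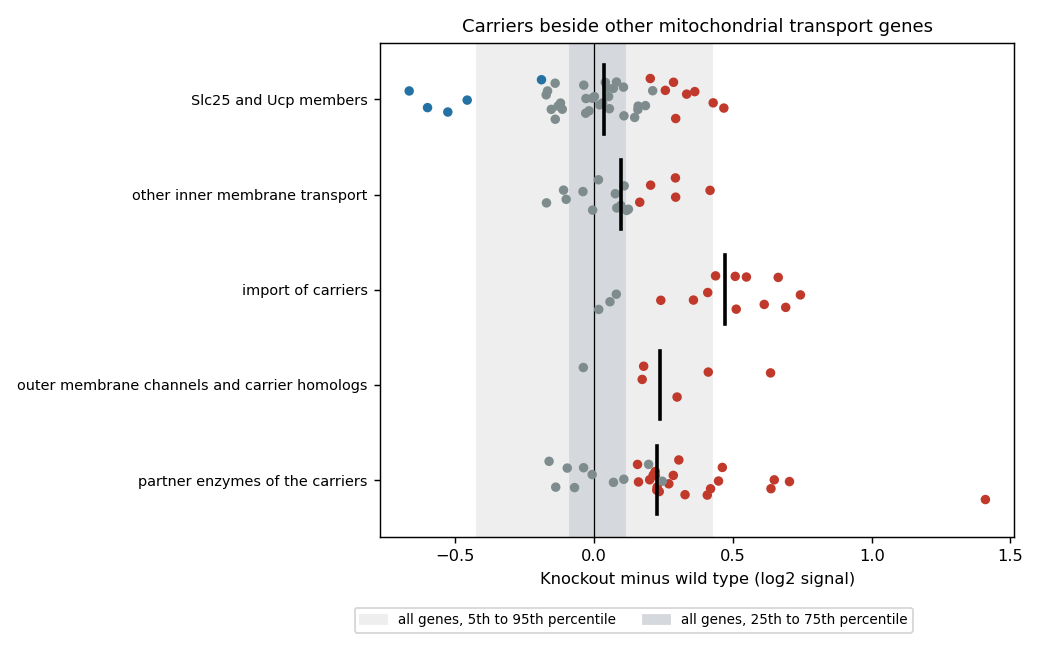
Difference between knockout and wild type, in log2 signal, for the 42 members and for 4 lists of genes that work beside them; each point is a gene (red higher, blue lower, grey not passed), black bars are medians and the shaded bands hold the middle of all genes tested. The carriers' median is 0.04 and points lie on both sides of 0, while the import list has its median at 0.47 and Me1 lies at 1.41.

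The choice of probe set was open to comparison for 21 members, which had more than 1 (76 probe sets in all). Of the 13 called members 6 had another probe set, which was called the same way in 1 (Slc25a39) and the opposite way in 0. Of members that did not pass, 4 had another probe set that was called: Slc25a15, Slc25a20, Slc25a26 and Slc25a44. Over all single-symbol probe sets 26.0% were called. The probe sets of 5 members carry a mark for possible binding to other transcripts, Slc25a39 among them.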

How the data were processed

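Total RNA of 8 ileal samples was labelled by in vitro transcription for Affymetrix arrays, per the labels' protocols. The values are log2 probe set signals deposited by the authors, and RMA is the method that the submitters' processing notes name; the sources read give neither its software nor array batches or scan dates. RMA compresses low signals, so differences of dim members, where these are expressed, may be understated. Of 45141 probe sets (104 controls), 28898 had 1 gene symbol and 551 several, and 28689 symbols were updated by Entrez identifier to RefSeq. The brightest probe set over all 8 arrays stood for a gene. The comparison of genotypes used limma 3.58.1 (R 4.3.3) over 17097 genes, 2-sided, Benjamini-Hochberg adjusted, threshold 0.05, after the procedure was tested on simulated data. Pairs of carriers were compared with exact permutation tests over arrays. Alternatives were a filter on dim genes, 3 other normalizations, the mean of probe sets, other limma settings, a replicate block, arrays left out and other thresholds. Precision is limited by 4 arrays per genotype. Values per sample are given for called members (up to 4 per role), members of pairs and the Ucp genes, and at least the difference for up to 4 called genes per companion list by adjusted p; others are named where their calls changed or as stated. Members, lists and pairs were chosen with earlier results of these data known. Figures used matplotlib 3.10.9.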

Additional observations from a re-analysis of the deposited data

Results flagged for a closer look

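In 2 of 86 groups of 4 samples, 1 sample stood apart from the other 3 by more than Dixon's 95% critical value for its gap over the range, where chance alone gives about 1 in 20. For Slc25a17, wild type replicate 4 was low at 6.5741, with the others between 6.649 and 6.6584 (ratio 0.888). For Slc25a24, Slc51a knockout replicate 1 was high at 11.1885, with the others between 11.1179 and 11.1185 (ratio 0.992). No explanation was tested.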

How the results depend on the processing

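In all, 21 alternatives were run. The calls on Slc25a1, Slc25a10, Slc25a12, Slc25a16, Slc25a17, Slc25a22, Slc25a36 and Slc25a4 held in all 18 refits. Cyclic loess gave 10 members lower (median difference -0.01) and turned Slc25a5 to -0.021. Leaving out the 3 arrays with low controls gave 7 members higher and 3 lower. These are 10 of 42, against 20.4% of all genes (12.2% higher and 8.27% lower). A minimum fold added to the threshold left 4 of 42 members higher and 4 lower, against 8.59% and 7.04% of all genes. With that minimum fold 22 companion genes were higher. Companion genes lower, 0 above, were 1 with dim genes left out, with quantile normalization and with the mean of probe sets, 2 with eBayes trend and robust and at a threshold of 0.1, and 4 after cyclic loess. Leaving out each array in turn gave 7 to 9 members higher and 4 to 6 lower, where 25.5% to 28.9% of all genes were called. In these refits 0 to 1 companion genes were lower and 0 pairs passed. Pairs passing were also 0 with the mean of probe sets and at a threshold of 0.01. Slc25a30, -0.03 above, was 0.0073 after quantile normalization and 0.0381 with the mean of probe sets, and ranged from -0.0553 to 0.0179 with 1 array left out, above 0 without wild type replicate 4 or Slc51a knockout replicate 4. Slc25a18 ranged from -0.0578 to 0.0212, above 0 without wild type replicate 3, and Slc25a15 was 0.0936 with the mean of probe sets. The cause of these changes was not tested. Deviations of same-numbered samples correlated at over 0.1 in 3 of 4 numbers (0.22, 0.11 and 0.16) and at -0.05 in replicate 2, against -0.16 to 0.18 for different numbers. Since they did not deviate together in every number and the labels name no shared animal or batch, the numbers were not taken to pair the samples. With the replicate number as a block, 9 members were higher and 4 lower, against 17.2% and 13.1% of all genes. Slc25a20 passed at 0.18 (limma adjusted p = 0.0171) and Slc25a53 did not. The block, and leaving out the 3 arrays, were not run for the pairs, since neither could reach the threshold.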
